A study of Mus musculus with 2 samples.

Results

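The proteasome genes described here are the protein-coding genes of the mouse whose symbols start with Psma, Psmb, Psmc, Psmd, Psme or Psmg followed by a digit, with pseudogenes left out. This spelling took 50 of 25004 genes in the count tables. Of these, Psmc3ip and Psme3ip1 are named after a subunit but encode proteins that are not part of the particle, so 48 genes were described. They comprise the 8 genes of the 20S alpha ring, 7 of the constitutive 20S beta ring, 4 beta subunits of specialised particles, 6 ATPases and 11 non-ATPase subunits of the 19S particle, 5 activators and 7 assembly chaperones. The study set hearts of cMyBP-C delta C0-C1f transgenic mice, whose transgene encodes cardiac myosin binding protein-C lacking the C0-C1f stretch at the amino terminus, against hearts of non-transgenic controls. Both groups were FvB/N mice aged 12 weeks, and each group gave 1 messenger RNA library made from 3 pooled hearts. Neither the promoter of the transgene nor the state of the endogenous gene is given in the sources used here.

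The proteasome is the barrel-shaped protease that degrades proteins tagged with ubiquitin. Alpha subunits form its outer rings and gate the entrance, beta subunits form the inner rings and carry the proteolytic sites, and the 19S particle recognises, unfolds and feeds in the substrate. In heart muscle it takes part in the turnover of sarcomere proteins, and subunit genes are known to be induced together by the transcription factor Nfe2l1, which binds antioxidant response elements, when proteasome activity falls short.

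With 1 library per group no difference has a replicate check, each value compares these 2 libraries and not the genotypes, and intervals cover counting error only. The libraries held 170543 counts (non-transgenic) and 190824 counts (transgenic), so that 1 count stood for 5.86 and 5.24 CPM, that is, counts scaled by the library total. A ratio is the normalised count of the transgenic over that of the non-transgenic library, given where both libraries together held at least 10 counts, with an exact 95% Clopper-Pearson interval. A gene was counted as higher or lower when it was at least 1.5-fold apart with its interval on the same side of 1. The kit kept strand and the strand setting of the counting is not given, so whether a count follows the messenger RNA of its own gene is uncertain for every gene below, and where exons of opposite genes overlap a count cannot be assigned with certainty to either. Of the 11 cardiomyocyte markers, Tnni3, Actc1, Myl2, Tnnc1, Ryr2 and Myh7 had between 20 and 3916 counts in each library, while Myh6, Tnnt2, Myl3, Mb and Pln had 0 to 2. These last genes are each listed under several transcript accessions, as is Myh7, and nothing is read from their low counts.

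Together the 48 genes held 483 counts of the non-transgenic library (0.283% of its total) and 655 of the transgenic one (0.343%). The ratio of these sums was 1.08 (0.957 to 1.22), so that no difference of the whole set was detectable at this depth. With DESeq2 size factors the ratio was 1.16 (1.03 to 1.31), an interval that no longer holds 1. Of the 48, 26 had a ratio, 11 had a count but fewer than 10 in both libraries summed, and 11 had none. Among the 26, Psmb4 was counted higher, Psmd3 was counted lower and 24 were neither. Over all 2936 genes with a ratio, 4.39% were counted higher and 7.25% lower, so 1 of 26 in each direction was not above the background under this scaling. With DESeq2 size factors 3 of 26 (11.5%) were counted higher against 6.27% of all genes, and under total-count scaling 4 of 26 (15.4%) against 7.15%. Of all calls 37.7% were higher, a split that turned to 55.4% with DESeq2 size factors and 65.4% under total-count scaling, shifting the median over all genes by 0.11 and 0.17 on the log2 scale. The 26 ratios ran from 0.278 for Psmd3 to 3.18 for Psme3 around a median of 1.28, beside 0.976 for all genes, and 18 of them were above 1, against 48.5% of all genes. That share differed by strand class. Exons of 7 members overlap an opposite-strand gene, 13 members have an opposite exon within 5 kb and 6 have none. Of these, 4, 9 and 5 were above 1, against 37.6%, 57.1% and 61.2% of all genes of each class. The part of strand class or transcript length in the members' ratios was not tested.

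**Figure D1:**
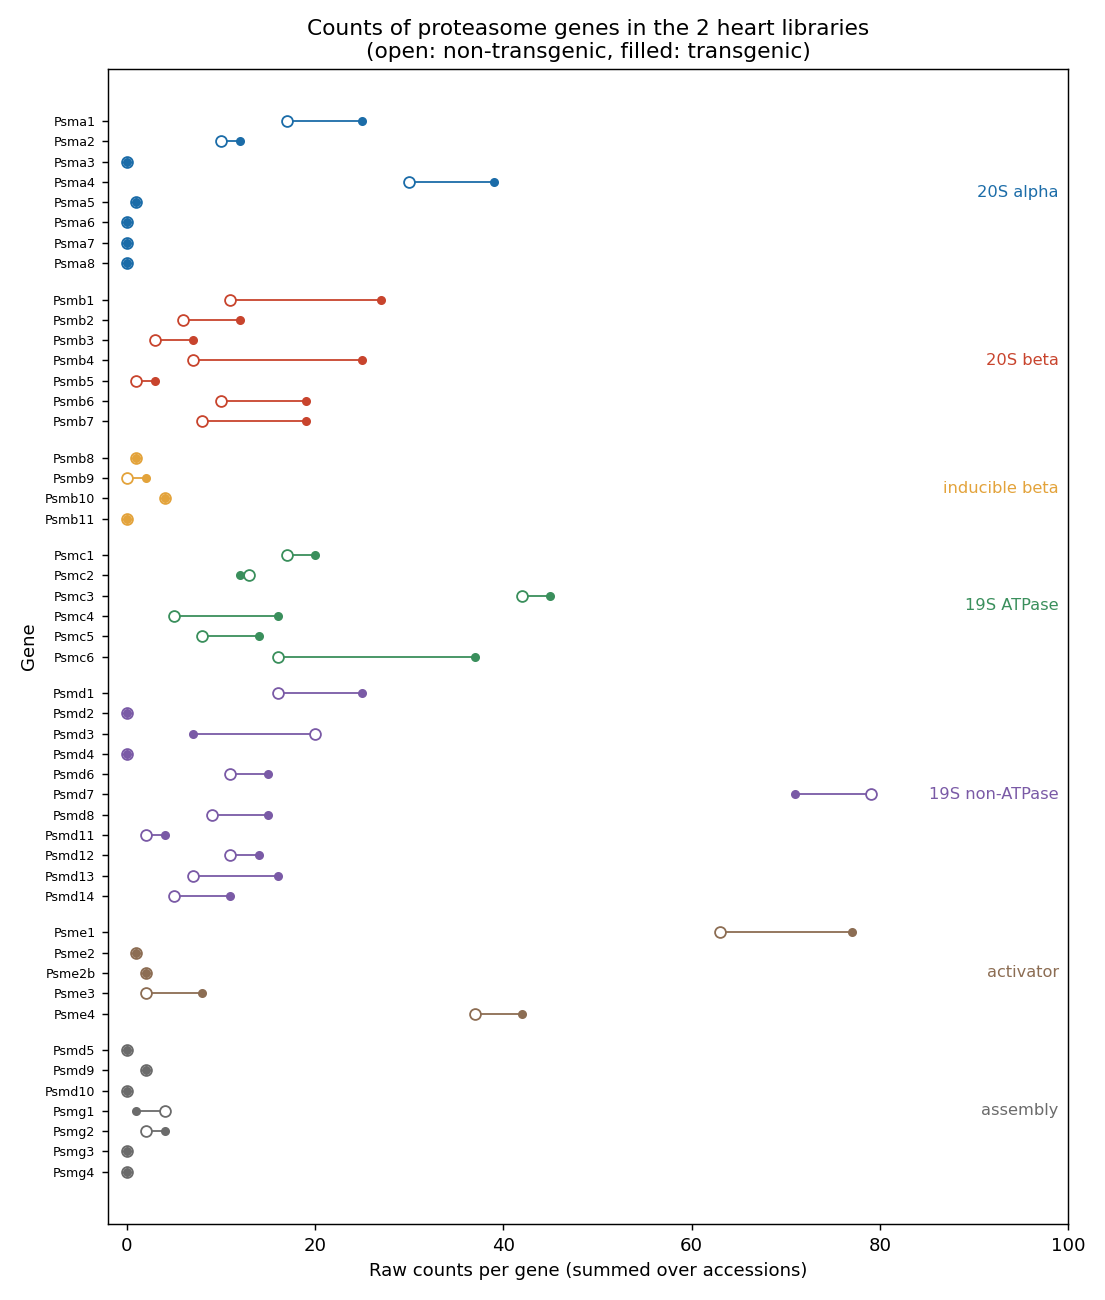
Raw counts of the 48 proteasome genes, grouped and coloured by role, with an open circle for the non-transgenic and a filled circle for the transgenic library. All 7 constitutive beta-ring genes have more counts in the transgenic library, Psmd7 and Psme1 have the most counts, and 11 genes lie at 0 in both. Counts are not scaled, and the transgenic library held more in total.

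Which members had no count went with how the genes were annotated. Of the 11 members listed under several transcript accessions, Psma3, Psma6, Psma7, Psma8, Psmd2, Psmd4, Psmd5, Psmd10, Psmg3 and Psmg4 had 0 counts in both libraries, and Psme2 had 1 in each. Of the 37 members with 1 accession, 36 had a count, and the exception was Psmb11, which encodes the beta subunit of the thymus. Over all genes the share with no count in either library was 85.1% of 7929 genes with several accessions and 58.9% of 17075 genes with 1. A 0 for Psma7, an obligatory subunit of the alpha ring, or for Psmd4, a ubiquitin receptor, is therefore no sign that the gene was silent, and nothing is read from the 11 genes at 0. Read by counting error alone, a count of 0 allows up to about 3 counts at a 1-sided 95% limit, unlike the intervals elsewhere, which bound both sides. That is 17.6 CPM in the non-transgenic and 15.7 CPM in the transgenic library. Reads that the counting left out are not covered by that limit.

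The beta ring was the role whose summed counts differed most clearly between the libraries. Its 7 constitutive genes held 46 non-transgenic and 112 transgenic counts, giving a ratio of 1.94 (1.36 to 2.79). The ring was singled out after its values were seen. Every one of the 7 genes had more counts in the transgenic library, which also held more in total (190824 against 170543), and the 6 with a ratio were all above 1. Of 285 other genes of like transcript length with 1 accession and no opposite-strand exon overlap, 68.4% were above 1. With each gene left out in turn the ratio stayed between 1.77 (1.20 to 2.66, without Psmb4) and 2.05 (1.38 to 3.11, without Psmb6), and under the other scalings it was 1.89 to 2.18.

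The sequence just before the start site is shown for the beta-ring genes, as the genes with a like direction. Promoter sequences from RefSeq on GRCm38.p6 were found for 40 of the 48 members, among them Psmb3, Psmb4, Psmb5 and Psmb6 of this ring. The lines give the 120 bases before the annotated start, 5′ to 3′ on the strand of the gene, at chr11:97703314-97703433 (plus strand), chr3:94886959-94887078 (minus), chr14:54617996-54618115 (minus) and chr11:70525237-70525356 (plus). Capitals mark matches, on either strand, to the core of the antioxidant response element, TGACNNNGC, or to the CCAAT box, the letters CCAAT; these motifs share no positions in the lines shown.
Psmb3: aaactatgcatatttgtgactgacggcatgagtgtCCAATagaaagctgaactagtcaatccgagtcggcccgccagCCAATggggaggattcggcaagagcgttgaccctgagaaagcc
Psmb4: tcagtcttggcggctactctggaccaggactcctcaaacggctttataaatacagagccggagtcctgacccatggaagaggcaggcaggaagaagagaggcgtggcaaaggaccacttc
Psmb5: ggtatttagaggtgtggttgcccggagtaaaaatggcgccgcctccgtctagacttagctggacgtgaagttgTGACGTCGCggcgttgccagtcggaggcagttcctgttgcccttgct
Psmb6: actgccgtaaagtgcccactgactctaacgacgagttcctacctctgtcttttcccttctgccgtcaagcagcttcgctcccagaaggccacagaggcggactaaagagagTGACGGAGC
Psmb5 held 1 match to TGACNNNGC, 38 bases before the start, Psmb6 held 1 that ended at the start, Psmb3 held 2 CCAAT boxes and Psmb4 held neither. In the 250 bases before the start, 5 of the 40 members (12.5%) held TGACNNNGC, against 12.0% of 17492 protein-coding genes, and 14 (35.0%) held CCAAT, against 39.5%. The genes with a match to TGACNNNGC were Psmb5, Psmb6, Psmc6, Psmd9 and Psmd12. The share of members with either motif was thus close to that of all genes, and a match is no evidence of binding.

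Psmb4, a structural beta subunit, was the single beta-ring gene whose own interval lay on one side of 1. It lies on chromosome 3 (94884093 to 94886961, minus strand, GRCm38) and had 7 non-transgenic and 25 transgenic counts, giving a ratio of 2.84 (1.19 to 7.78). Psmb1, another structural subunit, had 11 and 27 counts, giving a ratio of 1.95 (0.937 to 4.36) whose interval moved above 1 with DESeq2 size factors (1.01 to 4.70). Psmb2 had 6 and 12 counts, a ratio of 1.59 (0.552 to 5.16). Psmb3 had 3 and 7 counts, a ratio of 1.86 (0.424 to 11.1). These structural subunits thus all had higher counts in the transgenic library, at depths that leave wide intervals.

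The beta subunits with proteolytic sites had the same direction. Psmb6, which carries the caspase-like site, had 10 and 19 counts, a ratio of 1.51 (0.668 to 3.64). Psmb7, which carries the trypsin-like site, had 8 and 19 counts, a ratio of 1.89 (0.789 to 4.99). Psmb5, which carries the chymotrypsin-like site, had 1 and 3 counts, too few for a ratio. For none of these 3 genes alone was a difference detectable at this depth.

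Set against other proteasome genes in the same library, which needs no scaling, the beta ring also took a larger share of counts in the transgenic library. Its share of the proteasome counts was 9.52% (non-transgenic) and 17.1% (transgenic), an odds ratio of 1.96 (exact 95% interval 1.34 to 2.89), and 1.79 (1.19 to 2.75) without Psmb4. Against the alpha ring the odds ratio was 1.83 (1.10 to 3.06). The particle holds both rings in equal numbers, but nearly all alpha-ring counts lay on Psma1, Psma2 and Psma4. Of these, Psma4 shares exon bases with an opposite-strand gene, so that this comparison does not cover the whole alpha ring. Against the 19S particle it was 1.97 (1.33 to 2.96), and 1.62 (1.07 to 2.46) when Psmd3 and Psmd7 were left out. These comparisons were chosen after the counts were seen and concern these libraries alone.

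**Figure D2:**
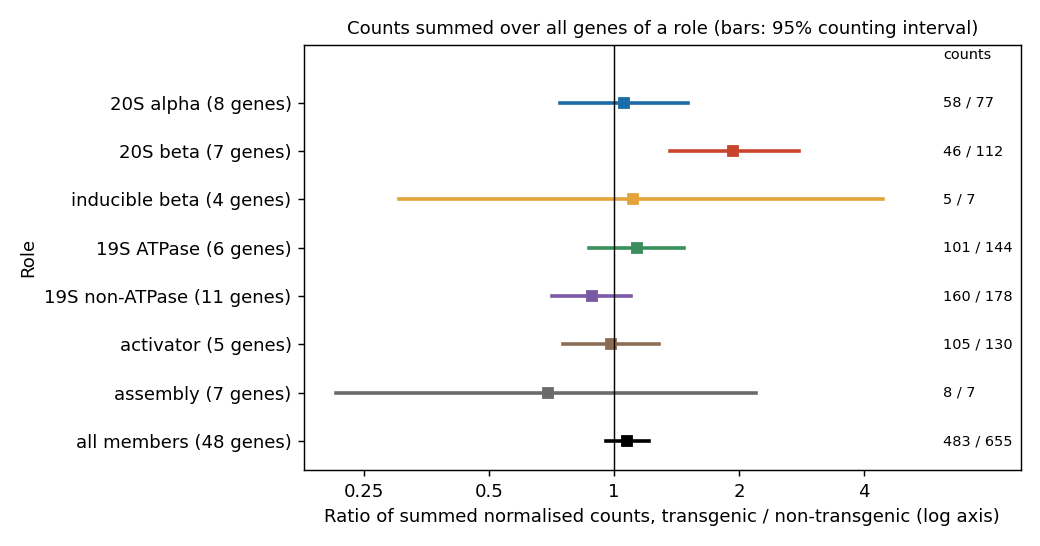
Ratio of counts summed over all genes of a role, transgenic over non-transgenic, on a log axis, with 95% counting intervals and, at the right, the raw counts in the non-transgenic and transgenic library. The beta ring at 1.94 is the single role whose interval does not hold 1, and all 48 members together lie at 1.08.

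Transcript length, strand class and the counts of muscle genes moved with the same comparison. The 6 beta-ring genes with a ratio have transcripts of 766 to 1758 bp, with a median of 1010 bp, against medians of 1201 bp in the alpha ring and 1614 and 1742 bp among 19S ATPases and non-ATPases. Of the 6, only Psmb7 shares exon bases with an opposite-strand gene, and without it the ratio of the ring was 1.95 (1.32 to 2.92). Among 285 other genes of that length range with 1 accession and no such overlap, the median ratio was 1.21 (quartiles 0.928 and 1.59), 68.4% were above 1 and 6.67% were counted higher. Psmb2, Psmb3 and Psmb6 have transcripts under 1000 bp, and medians at that length were higher, proteasome genes included. The median was 1.325 for 86 genes with an opposite exon within 5 kb (67.4% above 1). For 53 genes with none it was 1.48 (81.1% above 1). Over all lengths, 57.1% of genes with an opposite exon within 5 kb and 61.2% of genes with none were above 1, against 37.6% of overlapping genes. Cardiomyocyte markers summed to 4610 and 7734 counts, a ratio of 1.33 (1.29 to 1.38), with Tnnc1 counted higher (357 and 712, ratio 1.59). Myl2, which overlaps an opposite-strand gene, held 2405 and 3916 of these counts. Of the 6 markers with a ratio, 5 lay above 1. Myh7 lay below it, with 27 and 20 counts and a ratio of 0.589 (0.313 to 1.09). In whole hearts, fewer cells of a type and less RNA per cell cannot be told apart, and the part of length, strand class or cell make-up in the beta-ring ratio was not tested.

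**Figure D3:**
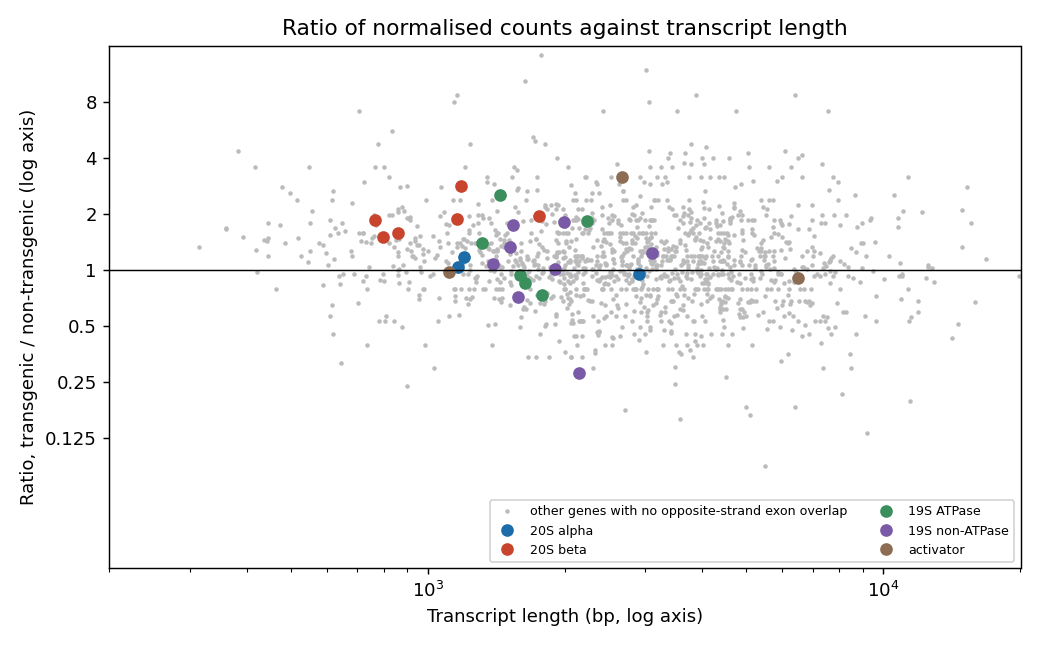
Ratio of normalised counts (log axis) against transcript length (log axis) for the 26 proteasome genes with a ratio, coloured by role, over 1416 other genes with 1 accession and no opposite-strand exon overlap in grey, of which 5 lie outside the axes. The beta-ring genes lie among the shorter transcripts, all above a ratio of 1.

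For the alpha ring, which shares the particle with the beta ring, the summed ratio lay near 1. Its 8 genes held 58 and 77 counts, a ratio of 1.06 (0.741 to 1.51), and all but 2 of these counts lay on Psma1, Psma2 and Psma4. Psma4, which shares 114 bp of exon with AY074887 on the opposite strand (9 and 10 counts), had 30 and 39 counts. Its ratio was 1.03 (0.626 to 1.72). Psma1 had 17 and 25 counts, a ratio of 1.17 (0.607 to 2.31). Psma2 had 10 and 12 counts, a ratio of 0.954 (0.378 to 2.46) that turned to 1.03 with DESeq2 size factors and 1.07 under total-count scaling. Psma5 had 1 count in each library. The sum describes 3 of the 7 alpha subunits of the common particle, since Psma3, Psma6 and Psma7 were among the genes at 0 and Psma8 belongs to a particle of the testis.

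The inducible beta subunits, which replace catalytic subunits in the immunoproteasome, were hardly counted. Psmb8 had 1 count in each library, Psmb9 had 0 and 2, and Psmb10 had 4 and 4, a summed ratio of 1.11 (0.304 to 4.45) with Psmb11 included. No difference was detectable at that depth. Psmb9 shares 212 bp of exon with Tap1 on the opposite strand, a peptide transporter gene that had 0 counts in both. Tap1 is listed under 2 accessions, so nothing is read from its 0. Of 21 genes of antigen presentation and interferon response, 6 had a ratio, 2 were counted higher, none lower and 4 neither, beside 4.39% higher and 7.25% lower over all genes. B2m, the light chain of class I molecules, had 23 and 59 counts, giving a ratio of 2.04 (1.24 to 3.46). Gbp2, an interferon-induced GTPase gene that overlaps an opposite-strand gene, had 1 and 11, giving a ratio of 8.75 (1.27 to 377). Of the 4 that were neither, Erap1, the most counted of the list and also overlapping, had 524 and 731 counts. Its ratio was 1.11 (0.990 to 1.24), and that of H2-D1 was 1.19 (0.283 to 5.75). The other genes with a ratio lay below 1, H2-Ab1 with 0.707 (0.237 to 2.06) and Stat2 with 0.795 (0.183 to 3.46). Of 9 leukocyte markers, Ptprc, Adgre1, Cd3e, Cd79a and Itgam had 0 counts in both libraries and the list summed to 14 and 20, of which Lyz2 gave 6 and 15 and C1qa 4 and 4. Ptprc, Adgre1 and Itgam are listed under several accessions, so nothing is read from their 0.

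The ATPase ring of the 19S particle, which unfolds substrates, was mixed. Its 6 genes held 101 and 144 counts, a ratio of 1.13 (0.873 to 1.48), with 3 genes above and 3 below 1 and none counted as apart. Psmc6 had 16 and 37 counts, giving a ratio of 1.84 (0.998 to 3.54) whose interval just held 1. With DESeq2 size factors that interval was 1.08 to 3.82, and Psmc6 was then counted higher. Psmc4 had 5 and 16 counts, giving a ratio of 2.54 (0.891 to 8.88) whose interval passed 1 with total counts alone (1.00 to 9.98).

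The other ATPase genes lay closer to 1. Psmc5 had 8 and 14 counts, a ratio of 1.39 (0.545 to 3.83). Psmc3, which shares 215 bp of exon with Slc39a13 (3 accessions, 0 counts in both), had 42 and 45 counts, a ratio of 0.852 (0.547 to 1.33). Psmc1 had 17 and 20 counts, a ratio of 0.935 (0.465 to 1.90) that turned to 1.01 with DESeq2 size factors and 1.05 under total-count scaling. Psmc2 had 13 and 12 counts, a ratio of 0.734 (0.306 to 1.74). Psmc3 thus had the most counts of the ring, and for none of these genes was a difference detectable.

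Among the non-ATPase subunits of the 19S particle, Psmd3 was counted lower in the transgenic library and the rest were neither higher nor lower. Psmd3, a subunit of the lid, lies on chromosome 11 (98682554 to 98695979, plus strand) and had 20 non-transgenic and 7 transgenic counts, giving a ratio of 0.278 (0.0994 to 0.685), or 3.59-fold lower. It overlaps 17 bp of exon of Gm12356 on the opposite strand, which was not analysed here. Psmd3 was counted lower under all 3 other scalings. Among all overlapping genes 11.4% were counted lower.

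Psmd7, also of the lid and the partner of the deubiquitinase Psmd14, had more counts over both libraries summed than any other proteasome gene, though in the transgenic library Psme1 had more (77 against 71). It lies on chromosome 8 (107580381 to 107588464, minus strand) and no opposite-strand exon lies within 5 kb. Its counts were 79 and 71, giving a ratio of 0.715 (0.511 to 0.997), so that its interval lay below 1 while the difference was under 1.5-fold. The interval held 1 with DESeq2 size factors (0.551 to 1.08) and under total-count scaling (0.575 to 1.12). Its ratio was thus lower than that of any other non-ATPase gene except Psmd3.

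The remaining non-ATPase genes with a ratio all lay above 1 with intervals that held 1. Psmd1, a scaffold of the base that overlaps Htr2b (1 and 0 counts), had 16 and 25 counts, a ratio of 1.24 (0.638 to 2.49). Psmd14, the deubiquitinase that removes ubiquitin chains during degradation, had 5 and 11 counts, a ratio of 1.75 (0.560 to 6.42). Psmd13, a lid subunit, had 7 and 16 counts, a ratio of 1.82 (0.707 to 5.22). Psmd13 shares 342 bp of exon with Sirt3 (1 and 2 counts) and lies 302 bp from Cox8b, which had 37 and 78 counts and a ratio of 1.68 (1.12 to 2.55).

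Psmd6, Psmd8 and Psmd12, all of the lid, had between 9 and 15 counts in each library. Their ratios were 1.08 for Psmd6, 1.33 for Psmd8 and 1.01 for Psmd12, the last turning to 0.990 with upper-quartile scaling. Psmd11 had 2 and 4 counts. The 11 non-ATPase genes summed to 160 and 178 counts, a ratio of 0.885 (0.710 to 1.10), which became 1.30 (0.939 to 1.82) without Psmd3 and Psmd7.

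**Figure D4:**
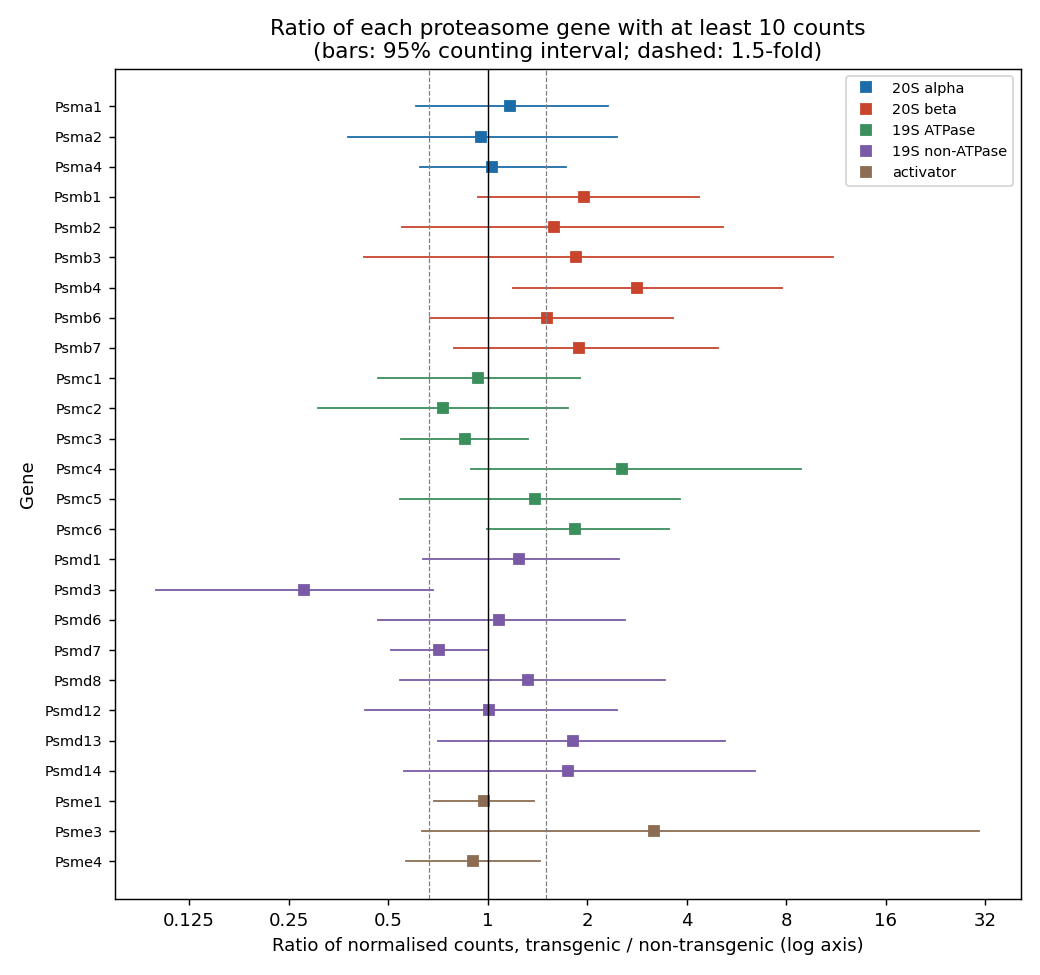
Ratio of normalised counts for the 26 proteasome genes that reached 10 counts over both libraries, on a log axis, with 95% counting intervals, a solid line at 1 and dashed lines at 1.5-fold in either direction. Psmb4 at 2.84 and Psmd3 at 0.278 are the 2 genes past 1.5-fold whose interval does not hold 1.

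For the activators, which cap the barrel in place of the 19S particle, no difference in summed counts was detectable. Their 5 genes summed to 105 and 130 counts, a ratio of 0.984 (0.755 to 1.29). Psme1, a subunit of the interferon-inducible cap, had 63 and 77 counts, a ratio of 0.972 (0.688 to 1.38) that turned to 1.05 with DESeq2 size factors and 1.09 under total-count scaling. It lies on chromosome 14 (55578123 to 55581529, plus strand) and shares 14 bp of exon, tail to tail, with Emc9, which had 41 and 58 counts and a ratio of 1.12 (0.741 to 1.72). Psme4, a single-chain activator of the nucleus, had 37 and 42 counts, a ratio of 0.902 (0.566 to 1.44) that turned to 1.01 with total counts alone.

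The other activator genes were counted little. Psme3, the activator of the nuclear cap, had 2 and 8 counts, a ratio of 3.18 (0.635 to 30.7). Psme2, the partner of Psme1, had 1 count in each library and Psme2b, a copy of it, had 2 in each; the counts of these copies are uncertain, as reads that match both may be left out or split. Per length, Psme1 was the most counted of the 37 members with 1 accession, with 56.7 and 69.2 counts per kb of transcript. Psmd7 followed with 50.0 and 44.9 counts per kb. Psma4 with 25.8 and 33.5 and Psmc3 with 25.7 and 27.5 counts per kb came next, while the beta-ring genes ran from 1.11 and 3.34 for Psmb5 to 12.5 and 23.8 for Psmb6. Genes of subunits that the particle holds in equal numbers thus did not have equal counts per kb.

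The assembly chaperones were at the limit of counting. Psmg1, which pairs with Psmg2 in building the alpha ring, had 4 and 1 counts, and Psmg2 had 2 and 4. Psmd9, a chaperone of the 19S base, had 2 in each library. With Psmd5, Psmd10, Psmg3 and Psmg4 at 0, the 7 genes summed to 8 and 7 counts, a ratio of 0.696 (0.215 to 2.20), and a difference smaller than several-fold was not detectable.

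Other genes of the ubiquitin and proteasome pathway did not move in one direction. Of 42 such genes, 17 had a ratio, 2 were counted higher, 1 lower and 14 neither, beside 4.39% higher and 7.25% lower over all genes, with a median log2 ratio of 0.04 beside -0.04 for all genes. Fbxo32, a ubiquitin ligase gene induced in muscle atrophy, had 10 and 30 counts, a ratio of 2.38 (1.13 to 5.47). Txnl1, whose product binds the 19S particle, had 9 and 29 counts, a ratio of 2.56 (1.18 to 6.15). Fbxo7, a ligase subunit that binds a proteasome inhibitor, had 13 counts against 1, a ratio of 0.0612 (0.00144 to 0.407). All 3 overlap an opposite-strand gene. Fbxo7 is also listed under 3 accessions, so nothing is read from its count of 1. Over all genes with a ratio, 32 of 248 with several accessions were counted lower, and 181 of 2688 with 1 accession.

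Some genes of that list act in the particle itself, and their values were picked out after being seen. Sem1, a lid subunit, had 35 and 59 counts, a ratio of 1.34 (0.868 to 2.10). Pomp, which assists beta-ring assembly, had 7 and 18 counts, a ratio of 2.05 (0.815 to 5.79). Adrm1, a ubiquitin receptor of the 19S base, had 2 and 1 counts. Nfe2l1, listed under 7 accessions, had 0 in both libraries.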

How the data were processed

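Messenger RNA of 2 pooled heart samples was counted. The authors deposited raw counts, 1 value for each of 41449 RefSeq transcript accessions. STAR, HTSeq and mm10 stand, without versions, in the submitters' processing notes; for annotation and strand setting the sources used here give nothing. Per the labels' protocols, a stranded poly-A kit was used. A RefSeq table named 41252 accessions and GENCODE M21 another 99 (98 stayed unnamed), and counts were summed over 25004 genes. Sample columns not used numbered 0.

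Library sizes were scaled with TMM factors (0.943 and 1.06) from edgeR 4.0.16 in R 4.3.3; with 1 library per group no test was run. Ratios needed at least 10 counts in both libraries summed, which treats both groups alike. A count of 0 would be set to 3 counts. Coordinates, exons, transcript lengths and opposite-strand neighbours (overlap of at least 1 bp, or within 5 kb) are from GENCODE M21 on GRCm38 (mm10). Calculations used Python 3.11.15, scipy 1.17.1 and pandas 2.3.3 and were tested on simulated data. Members, lists and roles were chosen with earlier results of these data known. Every member was named; of other lists, the genes counted as apart, or otherwise the most counted. Other settings tried were size factors from DESeq2 1.42.0, upper quartiles or totals, other filters, a 2-fold threshold and no overlapping genes.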

Additional observations from a re-analysis of the deposited data

How the results depend on the processing

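No paired analysis was possible because each group has 1 library. Among 26 members, 3 were counted higher with DESeq2 size factors (Psmb1, Psmb4 and Psmc6) and 4 with total counts alone (Psmc4 too), against 1. The number counted lower fell to 0 with at least 30 counts summed or with overlapping genes left out, both of which remove Psmd3, and was 2 when ratios were centred within strand class. The lower call among other pathway genes fell to 0 with at least 30 counts summed, which removes Fbxo7. The log2 ratio of the 19S non-ATPase sum was 0.38 without Psmd3 and Psmd7, against -0.18. The members' median log2 ratio stayed positive, from 0.05 with at least 30 counts summed to 0.53 with total counts alone, against 0.36. The ratio of all 48 genes summed was 1.16 (1.03 to 1.31) with DESeq2 size factors, 1.21 (1.08 to 1.37) with total counts alone, 1.15 (1.01 to 1.31) without Psmd7 and 0.988 (0.869 to 1.12) without the beta ring, so that whether the interval held 1 depended on the scaling and on Psmd7. With no filter the genes with a ratio were those with more than 3 counts in 1 library, since no fold is given at or under the floor. All 78 single-member ratios under other scalings lay within the intervals given above, and 5 members changed sign, as given beside them. Centring within strand class, leaving out beta-ring genes, leaving out Psmd3 and Psmd7 together, and the use of genes with 1 accession only were chosen after seeing the data. Depth limits most members: at fewer than 30 counts summed an interval spans several-fold.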

Other observations

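Several proteasome genes have a close opposite-strand neighbour, and the counts of these neighbours, picked out after being seen, stood as follows. Psmc2 had 13 and 12 counts in the non-transgenic and transgenic library, and Dnajc2, a chaperone gene 32 bp away head to head, had 11 and 26, a ratio of 1.88 (0.897 to 4.21). Psmc5 had 8 and 14 counts, and Ftsj3, a ribosome biogenesis gene 75 bp away, had 6 and 14, a ratio of 1.86 (0.670 to 5.89). Psma2 had 10 and 12, and Mrpl32, a mitochondrial ribosomal protein gene 75 bp away, had 8 and 15, a ratio of 1.49 (0.593 to 4.06). Psmb1 had 11 and 27 counts, and Tbp, which encodes the TATA-binding protein and lies 137 bp away, had 0 and 1. Lsm14b, which lies 909 bp from Psma7 tail to tail, had 16 and 8 counts, giving a ratio of 0.398 (0.147 to 0.985), while Psma7 had 0 in both. Of 7 neighbours in the tables whose exons overlap a proteasome gene, none had more counts than the proteasome gene it overlaps and 3 had 0 in both libraries. These 3 are Nek6 and Tap1, listed under 2 accessions, and Slc39a13, listed under 3, so nothing is read from their 0. Of 26 such pairs with a neighbour within 5 kb and no overlap, the neighbour had more counts in 11 and 0 in both libraries in 10. The same limit holds for those of the 10 that are listed under several accessions. Among the 11 are pairs of Psma3, Psma7, Psmb11, Psmd10 and Psmg4, which had 0 counts in both libraries, and of Psme2, with 1 in each. Any counted neighbour has more counts than a gene at 0, so nothing is read from those pairs.

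Psmc3ip, a meiotic recombination gene that the spelling rule takes, had 11 and 22 counts, giving a ratio of 1.59 (0.739 to 3.63), and Psme3ip1, listed under 4 accessions, had 0 in both libraries. Markers of other cell types had summed ratios of 0.604 (0.386 to 0.940) for 7 fibroblast genes with 50 and 38 counts, of which Col3a1 was counted lower, and 0.920 (0.766 to 1.10) for 7 endothelial genes with 223 and 258, Fabp4 and Cdh5 being the most counted. For 5 smooth muscle and pericyte genes with 99 and 195 counts the ratio was 1.57 (1.22 to 2.02), but most of these counts lay on Rgs5, which was counted higher (65 and 157, ratio 1.92), while Tagln had 28 and 26, a ratio of 0.738 (0.416 to 1.31). The 3 erythroid markers had no count. Of these lists, 4 fibroblast, 4 endothelial and 3 smooth muscle and pericyte genes had a ratio. Dcn, Pdgfra, Postn, Pecam1, Tek, Egfl7, Myh11, Pdgfrb and Alas2 had 0 or 1 counts in each library. They are listed under several accessions, so nothing is read from their low counts. Rgs5 and Kdr are also listed under 2 accessions.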
